A study of Mus musculus with 12 samples.

Results

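Platelets are small cells without a nucleus that megakaryocytes release into the blood, and they carry RNA that the megakaryocyte made. In their alpha granules they store chemokines, on their surface they hold an integrin that binds fibrinogen, and a separate receptor complex catches them on von Willebrand factor where a vessel is damaged. Lung tissue holds platelets in its capillaries, and megakaryocytes have also been seen in the lung. The 6 genes described here encode parts of these systems: the chemokines Ppbp and Pf4, the integrin chains Itga2b and Itgb3, and the von Willebrand factor receptor chains Gp9 and Gp1bb. They were chosen with earlier results of these data known and were taken by gene symbol. Of the 6, 5 had a probe set bright enough to be tested. The 6 stand among 12393 genes that the array names, of which 9294 were tested.

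The study hybridised total lung RNA of CD-1/ICR mice to 12 Affymetrix 430A arrays, 3 in each of 4 groups. The groups were Nrf2-/- mice under mechanical ventilation at a high tidal volume of 30 ml/kg (KO HVT), Nrf2-/- mice breathing spontaneously (KO SpV), Nrf2+/+ mice under the same ventilation (WT HVT) and Nrf2+/+ mice breathing spontaneously (WT SpV), each for 2 h. Nrf2 is the transcription factor encoded by Nfe2l2 that switches on antioxidant genes, and the study asked how its loss and ventilation act on the lung. The labels give neither the age of the mice nor the part of Nfe2l2 that was removed, and they do not say that the 3 arrays of a group came from separate mice, so the p-values rest on a spread that may be technical.

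The Nfe2l2 signal was 36.2 to 61.3 on the KO arrays and 2144 to 3298 on the WT arrays. The labels describe WT SpV array 1 as whole lung and the other 11 as left lobe. KO SpV array 1 stood apart: its trimmed mean of deposited signals was 73.9, against 182 to 469.5 on the other arrays, and its beta-actin control probe sets had a 3'/5' ratio, which rises as RNA breaks down, of 8.76 against 1.39 to 3.10. In HVT lungs both measures also separated the genotypes: trimmed means were 182 to 247 on KO HVT and 279 to 439 on WT HVT arrays, and actin ratios were 2.21 to 3.10 on KO HVT and 1.53 to 1.99 on WT HVT arrays. In SpV lungs, KO arrays 2 and 3 were instead brighter than the WT arrays and had lower actin ratios. The lung epithelial markers Sftpc, Sftpa1, Sftpb, Scgb1a1, Ager and Aqp5 were all measured, and their summed normalized signal was 73306 to 88806 on KO arrays and 75849 to 96662 on WT arrays. Each array was scaled and quantile normalized, and the values below are normalized signals or, for differences, log2 differences ± SE from limma over all 12 arrays. A gene was called at a Benjamini-Hochberg adjusted p under 0.05 over the 9294 genes. Without KO SpV array 1, the number of genes called over the whole array was 173 between genotypes in SpV lungs, 485 in HVT lungs and 625 averaged over breathing. It was 600 with ventilation in KO lungs, 45 in WT lungs and 82 for the interaction. In none of these fits was any of the 6 genes other than Ppbp called.

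Ppbp was higher in KO lungs than in WT lungs under both kinds of breathing, by 3.75-fold in SpV lungs and 3.06-fold in HVT lungs. It encodes pro-platelet basic protein, also called CXCL7, the precursor of a chemokine that draws neutrophils through the receptor CXCR2. The Ppbp signal was 797, 746 and 1235 on the KO HVT arrays and 694, 1598 and 1145 on the KO SpV arrays. It was 228, 332 and 302 on the WT HVT arrays and 393, 220.4 and 244 on the WT SpV arrays. All 6 KO arrays lay above all 6 WT arrays, and the lowest KO array was the dim KO SpV array 1. Within a kind of breathing, KO arrays lay entirely above WT arrays for 8.9% of all genes in SpV and 12.4% in HVT lungs. The share over both kinds together was not counted. Group means were 926 ± 269 in KO HVT, 1146 ± 452 in KO SpV, 287 ± 53.1 in WT HVT and 286 ± 93.6 in WT SpV lungs (SD, n = 3 each). KO SpV was thus the highest group and WT SpV the lowest, and in each genotype HVT and SpV lungs differed by less than their SD.

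The limma fit gave Ppbp a log2 difference of 1.91 ± 0.31 in SpV lungs, at an adjusted p of 0.0202, and of 1.61 ± 0.31 in HVT lungs, at 0.0379. In these contrasts 0.334% and 0.742% of all genes were called. Averaged over breathing, the difference was 1.76 ± 0.22 (95% interval 1.29 to 2.24, adjusted p = 0.00133), in a contrast where 3.74% of genes were called. Ppbp ranked 20 among all genes there by p. In whole lung RNA, more platelets or megakaryocytes and more of this RNA per cell cannot be told apart. In the deposited signals before scaling, Ppbp read 100 to 1558 on KO arrays and 127 to 282 on WT arrays, and the low end of the KO range was KO SpV array 1. Without any scaling the average was 1.08 and was not called (adjusted p = 0.269), while the median of all genes shifted by -0.61. Without KO SpV array 1 the average was 1.93 ± 0.19 (adjusted p = 0.000115), and in a fit that took the actin ratio into account it was 1.91 ± 0.19 (adjusted p = 0.000149). In HVT lungs alone that fit gave 1.85 ± 0.28 (adjusted p = 0.00622). There brightness and actin ratio separated the genotypes, and the fit used a slope shared by all 12 arrays, among them KO SpV array 1. In HVT lungs genotype and RNA quality therefore cannot be told apart.

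Within a single kind of breathing, the Ppbp call rested on single arrays. In SpV lungs the call was lost without KO SpV array 3 (adjusted p = 0.0852), WT SpV array 2 (adjusted p = 0.12) or WT SpV array 3 (adjusted p = 0.123), each by limma, at log2 differences of 1.75 to 1.87. In HVT lungs it was lost in 9 of 12 fits that left out an array, with differences between 1.396 and 1.75. The 3 that kept it left out KO SpV array 1, KO SpV array 2 or WT SpV array 1.

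**Figure D1:**
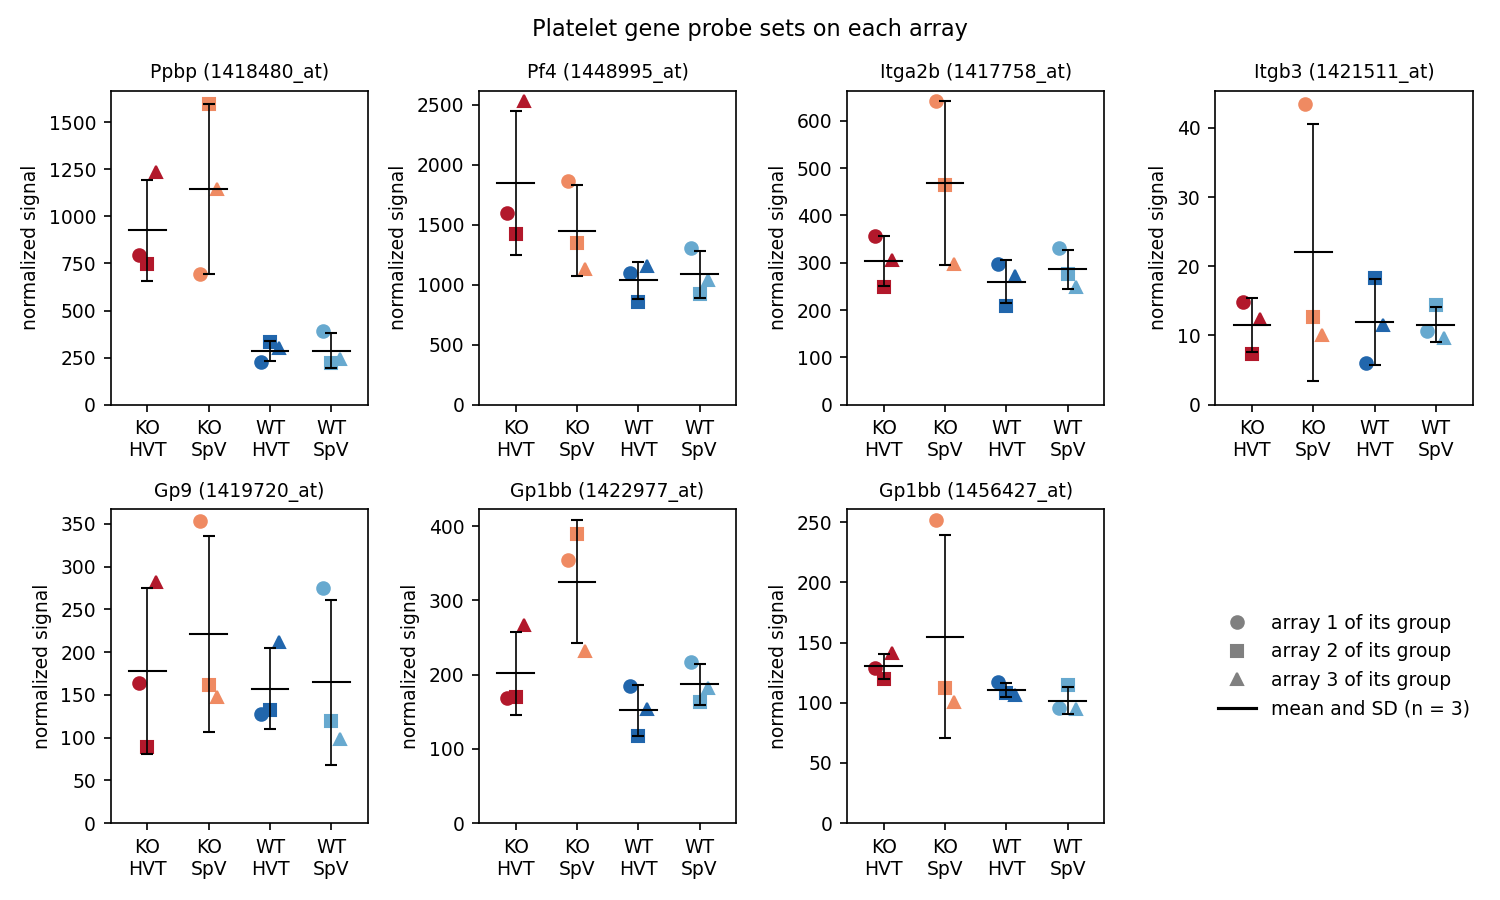
Normalized signal of every probe set of the 6 genes on each array, with a panel per probe set and the groups KO HVT, KO SpV, WT HVT and WT SpV from left to right. Circles, squares and triangles are arrays 1, 2 and 3 of a group, and bars are the mean and SD (n = 3). Ppbp is the panel in which all KO arrays (694 to 1598) lie above all WT arrays (220.4 to 393), and KO SpV array 1 holds the highest value of Itga2b, Itgb3, Gp9 and the second Gp1bb probe set.

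Pf4 encodes platelet factor 4, also called CXCL4, a chemokine that binds heparin and is released from the same granules. Its signal was 1596, 1422 and 2536 on the KO HVT arrays and 1868, 1352 and 1134 on the KO SpV arrays. It was 1094, 857 and 1156 on the WT HVT arrays and 1305, 923 and 1039 on the WT SpV arrays. The KO HVT arrays all lay above the WT HVT arrays, whereas the KO SpV and WT SpV arrays overlapped. Means were 1851 ± 599.5 in KO HVT, 1451 ± 377 in KO SpV, 1036 ± 158 in WT HVT and 1089 ± 196 in WT SpV lungs (SD, n = 3 each), so that KO HVT was highest and WT HVT lowest. Neighbours in the order of means differed by less than the larger of their SDs.

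The log2 difference of Pf4 between genotypes was 0.39 ± 0.25 in SpV lungs, with a limma adjusted p of 0.512, and 0.79 ± 0.25 in HVT lungs, with 0.194. Leaving out 1 array, the SpV value ran from 0.20 without KO SpV array 1 to 0.55 without KO SpV array 3. The average was 0.59 ± 0.17, with a 95% interval of 0.22 to 0.97, and missed the threshold (adjusted p = 0.0757). Without scaling the average was -0.12.

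Ppbp and Pf4 are neighbours on chromosome 5 and are read in the same direction. In the RefSeq annotation of GRCm38.p6, Ppbp lies at chr5:90768518-90770063 and Pf4 at chr5:90772435-90773383, with 3917 bp between their starts and 2371 bases between the genes. Their promoter windows from RefSeq, 250 bases before to 50 after the start on the + strand, are chr5:90768268-90768567 for Ppbp and chr5:90772185-90772484 for Pf4, and they are printed to set the called gene beside its uncalled neighbour. Capitals mark matches, on either strand, to 3 motifs found in the pair: GGAAGT of ETS factors (ACTTCC when on the other strand), AGATAA of GATA factors and the TATA box TATAAA.
Ppbp: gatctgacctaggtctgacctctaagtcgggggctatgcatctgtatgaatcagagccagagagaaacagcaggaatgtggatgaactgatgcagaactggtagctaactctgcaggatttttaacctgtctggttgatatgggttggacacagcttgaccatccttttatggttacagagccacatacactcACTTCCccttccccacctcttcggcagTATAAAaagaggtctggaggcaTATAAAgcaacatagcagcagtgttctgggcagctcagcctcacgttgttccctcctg
Pf4: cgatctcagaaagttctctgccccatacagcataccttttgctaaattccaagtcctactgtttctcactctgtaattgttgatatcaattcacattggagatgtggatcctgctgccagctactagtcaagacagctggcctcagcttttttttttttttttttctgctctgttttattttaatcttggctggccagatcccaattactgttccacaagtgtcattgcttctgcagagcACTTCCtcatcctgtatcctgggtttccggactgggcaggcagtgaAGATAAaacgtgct

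The Ppbp window held TATAAA with first bases 30 and 8 bases before the start (positions -30 and -8, the start being 0) and an ETS match at -57. The Pf4 window held an ETS match at -10 and a GATA match at 36, and no TATAAA. No marked match overlapped another. Windows were given for 5 of the 6 genes, all but Itgb3. The ETS motif was in 4 of these 5 windows (Ppbp, Pf4, Itga2b and Gp9) and in 23.8% of all 32851 windows. The GATA motif was in 1 of the 5 windows and in 11.2% of all, and TATAAA was in 1 of the 5 and in 13.6% of all. The core of the antioxidant response element, TGACNNNGC, to which NRF2 binds, was in 0 of the 5 windows and in 12.4% of all. A match is a string of letters and not a shown binding site, and these counts say nothing of sites outside the windows.

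The chains of the fibrinogen receptor could be followed through Itga2b only. Itga2b, the alpha IIb chain that is a defining marker of megakaryocytes and platelets, read 356, 249 and 306 on the KO HVT arrays and 642, 465 and 296 on the KO SpV arrays. It read 298, 209 and 272 on the WT HVT arrays and 332, 276 and 249.6 on the WT SpV arrays. KO and WT arrays overlapped under both kinds of breathing, and the highest value was that of KO SpV array 1. Means were 304 ± 53.5 in KO HVT, 468 ± 173 in KO SpV, 259.5 ± 45.6 in WT HVT and 286 ± 42.0 in WT SpV lungs (SD, n = 3 each). KO SpV had the highest mean but lay within its own SD of KO HVT. The genotype difference was 0.63 ± 0.26 in SpV lungs (limma adjusted p = 0.308), 0.21 ± 0.26 in HVT lungs (adjusted p = 0.749) and 0.42 ± 0.18 on average (adjusted p = 0.208). Without KO SpV array 1 the SpV value was 0.37, and without KO SpV array 3 it was 0.91. Fits without any other single array lay between these values.

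Itgb3 encodes the beta 3 chain, which pairs with alpha IIb on platelets and with alpha V on other cells. Its single probe set read 7.3 to 14.9 on KO HVT arrays, 10.1 to 43.4 on KO SpV arrays, 6.0 to 18.3 on WT HVT arrays and 9.6 to 14.4 on WT SpV arrays. No array reached the signal of 100 that the filter asked for on at least 3 arrays, so Itgb3 was not tested and its signals were too dim to order the groups. The highest of them again lay on KO SpV array 1.

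The chains of the von Willebrand factor receptor were dim but measured. Gp9, the small glycoprotein IX chain, read 164, 88.7 and 282 on the KO HVT arrays and 353, 162 and 148 on the KO SpV arrays. It read 128, 132 and 212 on the WT HVT arrays and 275, 120 and 98.1 on the WT SpV arrays. Every group overlapped every other. Means were 178 ± 97.2 in KO HVT, 221 ± 115 in KO SpV, 157.5 ± 47.6 in WT HVT and 164.5 ± 96.7 in WT SpV lungs (SD, n = 3 each). The genotype difference was 0.42 ± 0.45 in SpV lungs, 0.07 ± 0.45 in HVT lungs and 0.24 ± 0.32 on average, with limma adjusted p-values of 0.729, 0.964 and 0.713. The SE of Gp9 was the widest of the 5 tested genes, and its average has a 95% interval of -0.45 to 0.93. Without KO SpV array 1 the SpV value was 0.05, and without WT SpV array 1, the whole lung sample, it was 0.83. These were the lowest and highest values when 1 array was left out.

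Gp1bb, the glycoprotein Ib beta chain, read 168, 169.8 and 267 on the KO HVT arrays and 355, 389.7 and 231 on the KO SpV arrays. It read 185, 117 and 153.5 on the WT HVT arrays and 216, 163 and 182 on the WT SpV arrays. The KO SpV arrays all lay above the WT SpV arrays, and the HVT groups overlapped. Means were 201.5 ± 56.5 in KO HVT, 325 ± 83.2 in KO SpV, 152 ± 34.0 in WT HVT and 187 ± 27.2 in WT SpV lungs (SD, n = 3 each), and KO SpV exceeded each other group by more than either SD. The genotype difference was 0.73 ± 0.25 in SpV lungs (limma adjusted p = 0.251), 0.36 ± 0.25 in HVT lungs (adjusted p = 0.567) and 0.55 ± 0.18 on average (95% interval 0.16 to 0.93, adjusted p = 0.109). A second Gp1bb probe set read 120.2 to 141 on KO HVT, 100.5 to 252 on KO SpV, 106 to 118 on WT HVT and 94.7 to 115 on WT SpV arrays. Fitted with all probe sets, it had an average of 0.32 ± 0.20 (adjusted p = 0.417). Gp1bb overlaps Septin5 in the annotation, so a probe set there can read either gene where they share sequence.

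All 5 tested genes had a higher mean in KO than in WT lungs under both kinds of breathing, and Ppbp alone was called. Their median log2 difference was 0.63 in SpV lungs, 0.36 in HVT lungs and 0.55 on average, beside -0.01, 0.01 and 0.01 over all genes. The genes were chosen with earlier results of these data known. The shared direction and these medians are therefore a description and not a test. KO arrays lay entirely above WT arrays for 2 of the 5 genes in SpV lungs (Ppbp and Gp1bb) and for 2 in HVT lungs (Ppbp and Pf4). Over all genes this arrangement was found for 8.9% in SpV and 12.4% in HVT lungs. The direction of the other 4 genes depends on scaling: without it, their averages lay between -0.33 and -0.02. The median of all genes was then -0.61.

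**Figure D2:**
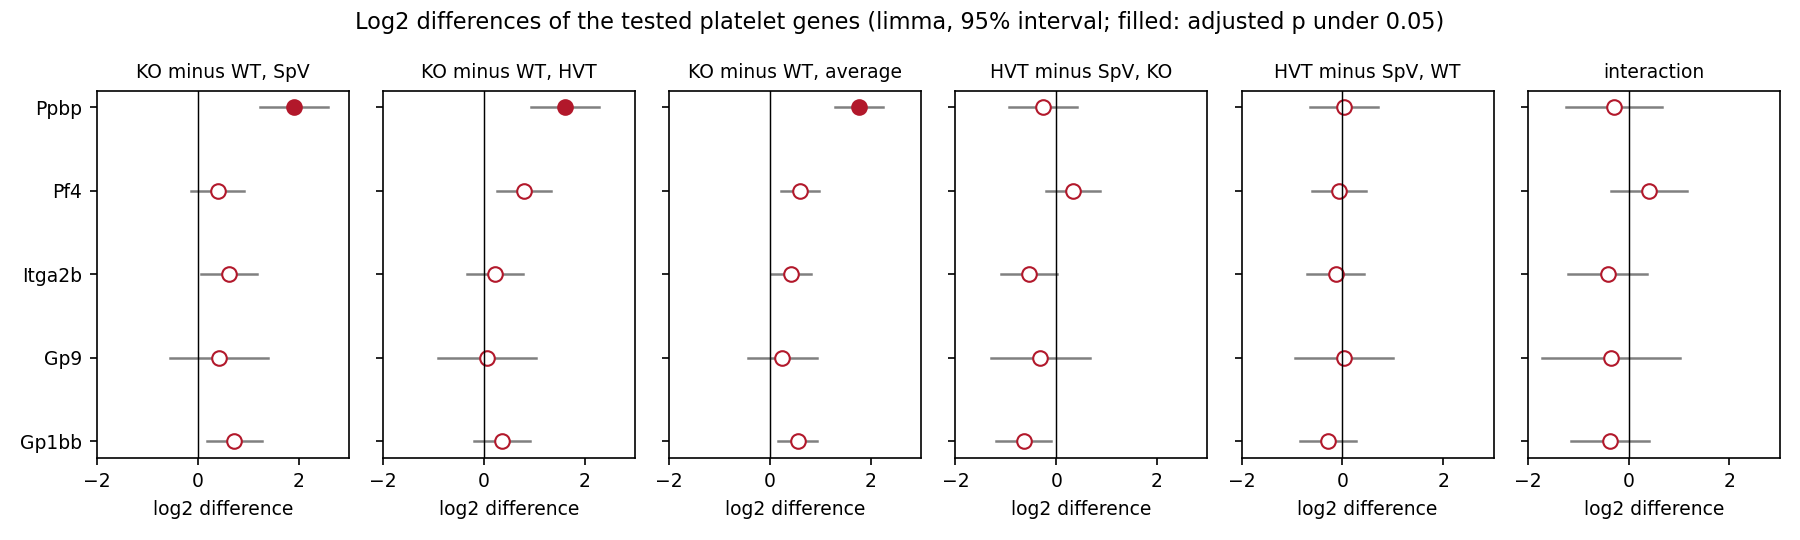
Log2 differences of the 5 tested genes in the 6 contrasts, with 95% intervals from limma. Filled points passed an adjusted p of 0.05, which only Ppbp did, in the 3 genotype contrasts (1.91, 1.61 and 1.76). In the ventilation contrasts and the interaction all points are open.

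None of the 5 tested genes passed the test for ventilation by limma, and 1 of them, Gp1bb in KO lungs, had an unadjusted p under 0.05. In KO lungs, where 0% of all genes were called by limma (987 at an unadjusted p under 0.05), the HVT minus SpV difference was -0.26 ± 0.31 for Ppbp, 0.33 ± 0.25 for Pf4 and -0.31 ± 0.45 for Gp9. The values of the surface receptor chains were -0.55 ± 0.26 for Itga2b (adjusted p = 0.482) and -0.65 ± 0.25 for Gp1bb (adjusted p = 0.391). HVT and SpV arrays overlapped for each of the 5 genes in both genotypes. Without KO SpV array 1 the values were -0.58 ± 0.28 for Ppbp, 0.53 ± 0.24 for Pf4 and -0.29 ± 0.23 for Itga2b. They were 0.06 ± 0.45 for Gp9 and -0.58 ± 0.28 for Gp1bb. That fit called 600 of all genes and 0 of the 5.

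In WT lungs, HVT minus SpV differences ran from -0.29 ± 0.25 for Gp1bb to 0.04 ± 0.45 for Gp9, and 0 of the 5 passed by limma or had an unadjusted p under 0.05, with 0.0753% of all genes called. The Ppbp value was 0.03 ± 0.31, with an interval of -0.64 to 0.71, and that of Pf4 was -0.07 ± 0.25, with an interval of -0.60 to 0.46. Changes within those bounds were therefore not excluded with 3 arrays a group, and the bounds are not a limit of detection. The intervals do not show that ventilation had no effect.

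The interaction, which asks whether ventilation acts differently in KO and WT lungs, called 0% of all genes by limma (452 at an unadjusted p under 0.05). Its values ran from -0.41 ± 0.36 for Itga2b to 0.40 ± 0.35 for Pf4, and that of Ppbp was -0.29 ± 0.44, each with an adjusted p of 1 and an unadjusted p above 0.05. Without KO SpV array 1 the Ppbp interaction was -0.61 ± 0.38 (limma adjusted p = 0.476), in a fit that called 82 of all genes. The genotype difference of Ppbp is thus not shown to differ between HVT and SpV lungs.

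Among themselves, the 5 tested genes followed different patterns over the 12 arrays. Correlations of log2 signal are given as a description, because arrays of a group share their genotype and breathing. Once group means were removed, Pf4 ran with Gp9 (r = 0.877), Gp1bb (r = 0.829) and Itga2b (r = 0.689). Itga2b ran with Gp1bb (r = 0.651) and Gp9 (r = 0.662), and Gp9 with Gp1bb (r = 0.561). Ppbp ran with none of them within groups (r = -0.226 to 0.283). Over all 12 arrays its r with Pf4 was 0.662, against 0.148 within groups. Without KO SpV array 1, r over all groups fell from 0.550 to 0.437 for Pf4 and Itga2b and from 0.638 to 0.556 for Pf4 and Gp9. It fell from 0.645 to 0.411 for Itga2b and Gp9 and from 0.536 to 0.356 for Gp9 and Gp1bb. The other pairs without Ppbp went from 0.604 to 0.518 (Pf4 and Gp1bb) and from 0.847 to 0.824 (Itga2b and Gp1bb). The r of Ppbp went from 0.662 to 0.671 with Pf4, from 0.473 to 0.584 with Itga2b and from 0.665 to 0.704 with Gp1bb. With Gp9 it went from 0.302 to 0.286. On KO SpV array 1 Ppbp was the lowest of its group, while Pf4, Itga2b and Gp9 were the highest of theirs. Values within groups were not computed without that array.

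The genes whose log2 signal was most like that of each member over the 12 arrays, by Pearson's r, differed between members. For Ppbp they were Wtap (0.930), Rad51ap1 (0.916) and Zfp207 (0.910), and for Pf4 they were Dna2 (0.955), Slamf1 (0.945) and Clec1b (0.926). For Itga2b they were Nckipsd and Pcbd1 (0.884 each) and Marveld1 (0.878). For Gp9 they were Cdk12 (0.898), Cspg4 (0.884) and Pigs (0.844), and for Gp1bb Hnrnpc (0.895), H2ac19 (0.883) and Myo1g (0.880). Clec1b was the only platelet gene of the lists used here that appeared. These genes top a search over all 9294 tested genes, which gives high values by itself. With group means removed, r was 0.565, 0.659 and 0.750 for the genes of Ppbp, in the order above. It was 0.925, 0.869 and 0.824 for those of Pf4, and 0.751 to 0.906 for those of the other members.

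**Figure D3:**
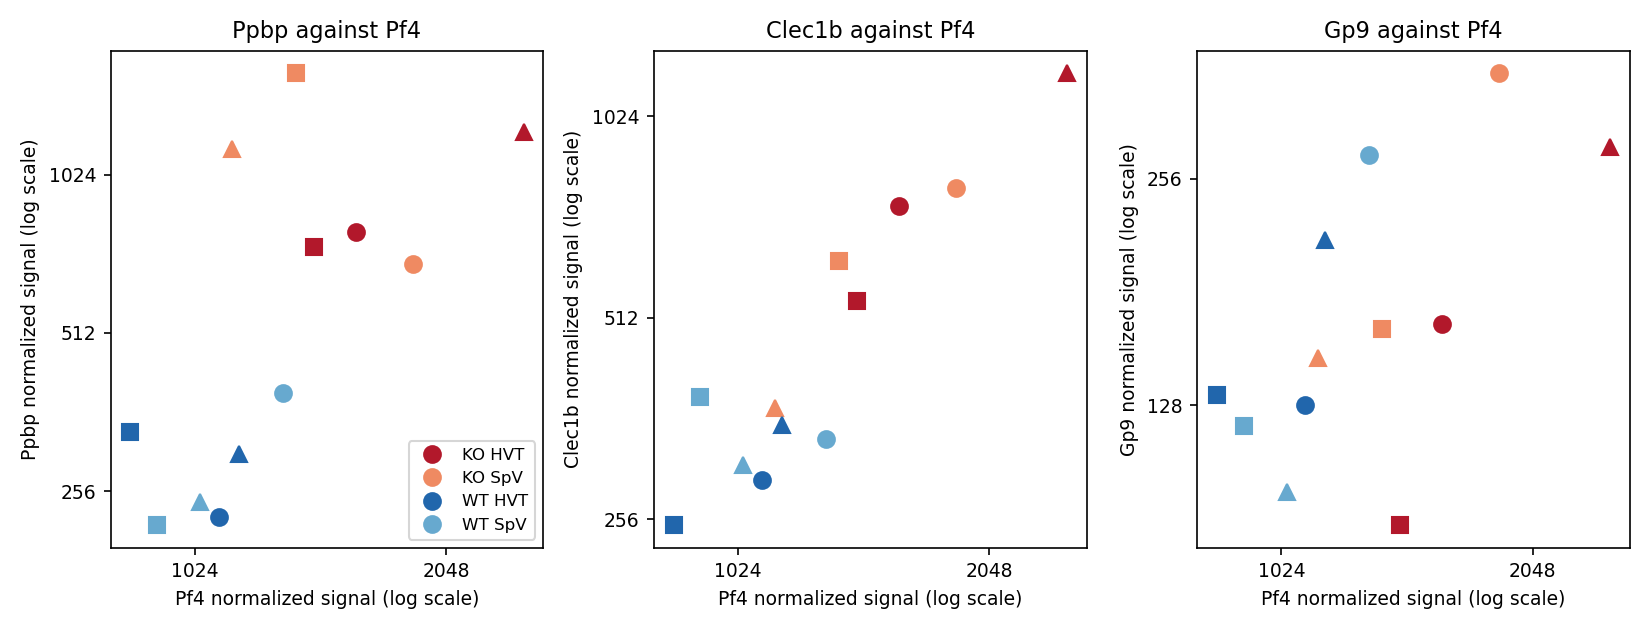
Normalized signals of Ppbp, Clec1b and Gp9 against Pf4 on the 12 arrays, both axes on a log scale, coloured by group, with circles, squares and triangles for arrays 1, 2 and 3 of a group. In the Ppbp panel the KO and WT arrays form separate bands, in the Clec1b panel the signals rise together (r = 0.926), and in the Gp9 panel KO and WT arrays mix.

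Other platelet genes were read from lists of receptors, granule proteins, integrin activators, enzymes, transcription factors and binding partners. Of 11 platelet receptors, 6 were measured and 1 rose in KO lungs on the average over breathing, with 0 lower by the same limma test, in a contrast where 3.74% of all genes were called. It was Clec1b, the receptor CLEC-2 for podoplanin, which platelets carry. The Clec1b signal was 753, 544 and 1188 on the KO HVT arrays and 801, 623 and 376 on the KO SpV arrays. It was 294, 251 and 354 on the WT HVT arrays and 338, 391 and 309 on the WT SpV arrays. All KO HVT arrays lay above the WT HVT arrays, and KO SpV array 3 was below WT SpV array 2. The average was 1.04 ± 0.21 (adjusted p = 0.021), with 1.36 ± 0.30 in HVT (adjusted p = 0.0682) and 0.71 ± 0.30 in SpV lungs (adjusted p = 0.318). The call was lost without WT HVT array 2 (0.97, adjusted p = 0.0637), without WT SpV array 3 (adjusted p = 0.0626) and without scaling (0.34, adjusted p = 0.53).

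Granule and secreted proteins had 8 of 10 members measured and 1 called higher, 0 lower, with a median of 0.08 on average, beside 0.01 over all genes, of which 3.74% were called in this contrast. The called gene was Clu, clusterin, a secreted chaperone that other lung cells also make. It read 3865, 4836 and 4930.5 on KO HVT and 3669.8, 4804 and 4577 on KO SpV arrays, against 3054, 1957 and 3596 on WT HVT and 2355, 2844 and 2019 on WT SpV arrays. All KO arrays were above all WT arrays, with an average of 0.78 ± 0.15 (limma adjusted p = 0.0188). That call was lost without scaling (0.09, adjusted p = 0.872) and in 5 of 12 fits without an array, down to 0.42 ± 0.19 without WT SpV array 2 (adjusted p = 0.271). Those fits chose the brightest probe set anew, so some of them may read another Clu probe set. WT SpV array 2 had the highest Clu signal of its group (2844). The part of the probe set choice was not tested. Integrin activators had 8 of 9 measured, 1 higher, 0 lower and a median of -0.0018. The called gene was Fermt3, kindlin-3, which switches platelet and leukocyte integrins on. It read 881, 668 and 1217 on KO HVT and 1380, 991 and 1049 on KO SpV arrays, against 652, 454 and 576 on WT HVT and 573, 501 and 553 on WT SpV arrays. Again all KO arrays lay above all WT arrays, and the average of 0.86 ± 0.16 (limma adjusted p = 0.0137) was lost only without scaling (0.15, adjusted p = 0.801). The share of all genes separated in this way over both kinds of breathing was not counted. Clu and Fermt3 are named because they were called on these same values.

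The other lists held no call in any contrast by limma. Enzymes and cytoskeletal proteins of platelets had 8 of 10 measured and a median of 0.24 on average. Plek, pleckstrin, had 0.68 ± 0.20 (limma adjusted p = 0.0814) and Alox12, the platelet 12-lipoxygenase, had 0.61 ± 0.19 (adjusted p = 0.091). Transcription factors of megakaryocytes had 6 of 7 measured and a median of 0.03. Fli1 had -0.99 ± 0.43 (adjusted p = 0.21) and Runx1 0.54 ± 0.19 (adjusted p = 0.124). Of the partners and ligands, 5 of 8 were measured, with a median of 0.06, and the fibrinogen chains Fga, Fgb and Fgg were too dim to test. Cxcr2, the receptor for the chemokine made from Ppbp, had 0.10 ± 0.32 (adjusted p = 0.898), and Selplg, the ligand of P-selectin, had 0.33 ± 0.26 (adjusted p = 0.51).

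Markers of other cells also differed between genotypes, and their part in the platelet values was not tested. Their counts on the average over breathing stand beside 3.74% of all genes called. Endothelial markers were lower: of 12 measured, 6 fell in KO lungs on average and 0 rose, with a median of -0.91. Their summed signal was 12898 to 14674 on KO HVT, 12836 to 26883 on KO SpV, 21871 to 35750 on WT HVT and 31191 to 38922 on WT SpV arrays. Cdh5, the cadherin of endothelial junctions, fell by 1.96 ± 0.37 (limma adjusted p = 0.0168), the junction protein Cldn5 by 0.80 ± 0.17 (adjusted p = 0.0263) and the secreted Egfl7 by 0.66 ± 0.12 (adjusted p = 0.0116). Without KO SpV array 1 their values were -1.56 ± 0.20, -0.68 ± 0.15 and -0.59 ± 0.11 in that order. Neutrophil markers had 10 of 11 measured, 1 called higher and 0 lower on average. Their sum was 4629 to 7099.5 on KO HVT, 6877 to 25881 on KO SpV, 5199.6 to 9679.6 on WT HVT and 6324 to 9025 on WT SpV arrays. The called one was Ltf, lactoferrin, which airway glands also make, at 2.41 ± 0.29 (limma adjusted p = 0.00108), and it was also called in HVT lungs, at 2.80 ± 0.41 (adjusted p = 0.00982). The neutrophil list as a whole did not follow Ltf: 6 of the 10 measured genes had lower averages in KO lungs, and 8 of the 10 were lower in HVT lungs, with a median there of -0.66, while 8 of the 10 were higher in SpV lungs, with a median of 0.73. In HVT lungs S100a8, named here after its values were seen, had -1.46 ± 0.47 (adjusted p = 0.206).

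Red cell markers had 3 of 8 measured, and their sum was 1424 to 1582 on KO HVT, 1648 to 3849 on KO SpV, 1274 to 1599 on WT HVT and 3047 to 3424 on WT SpV arrays. Ank1, ankyrin 1, rose by 0.61 ± 0.15 on average (limma adjusted p = 0.0389). The other two, named after their values were seen, went opposite ways: Alas2, the heme synthesis enzyme of red cells, had -0.70 ± 0.29 (adjusted p = 0.192) and the anion exchanger Slc4a1 had 0.73 ± 0.24 (adjusted p = 0.108). The red cell sums of KO and WT arrays overlapped. Macrophage markers had 7 of 8 measured and 0 called by limma in any contrast. Itgax had 0.37 ± 0.20 (adjusted p = 0.325) and Mertk -0.15 ± 0.18 (adjusted p = 0.693), and the macrophage sum was 5316 to 11178 on KO and 7531 to 9168 on WT arrays. Of the 6 lung epithelial markers 2 fell on average, Ager by 1.36 ± 0.34 (limma adjusted p = 0.0481) and Aqp5 by 0.53 ± 0.13 (adjusted p = 0.0498). Both mark alveolar type I cells. Without KO SpV array 1 the values were -0.95 ± 0.16 for Ager and -0.50 ± 0.14 for Aqp5. Of 22 alternative fits each, the call was lost in 14 for Ager and for Aqp5, 10 for Ank1, 7 for Cldn5, 2 for Egfl7 and 0 for Cdh5. Leaving out WT HVT array 2 ended it for Ager, Aqp5, Ank1 and Cldn5. Ltf lost its average call without scaling (adjusted p = 0.0714), and its HVT call without scaling (adjusted p = 0.394), without WT HVT array 1 (0.0584) and without WT HVT array 2 (0.0593).

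**Figure D4:**
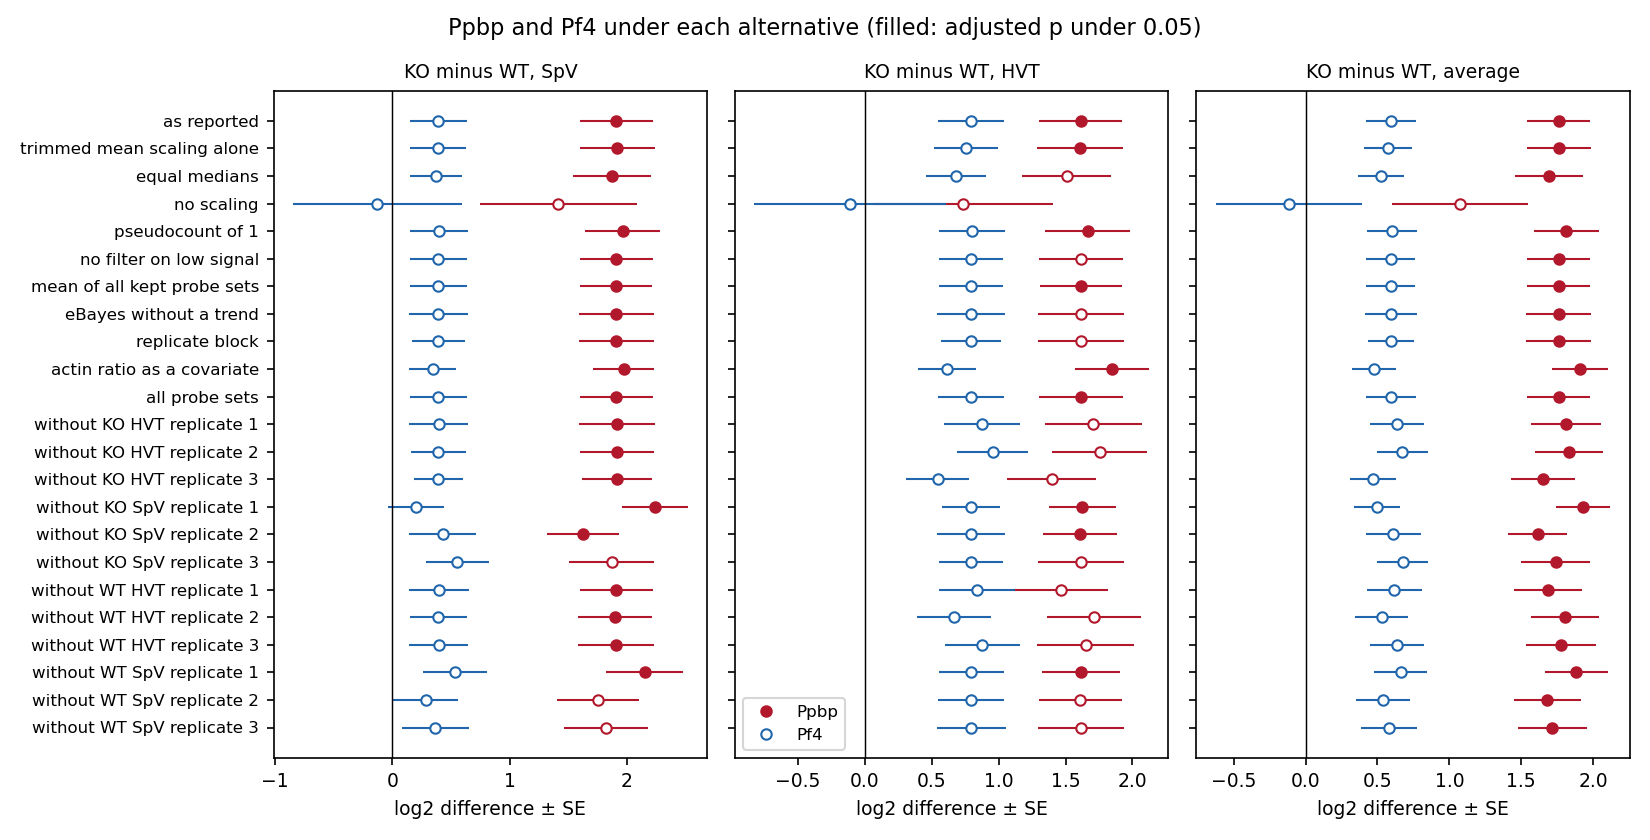
Log2 differences ± SE of Ppbp (red) and Pf4 (blue) between KO and WT lungs under each processing alternative and without each array, with filled points for an adjusted p under 0.05. The Ppbp average stayed called in every fit but the one without scaling (1.08), Pf4 was called in none, and the HVT contrast of Ppbp lost its call in most fits without an array.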

How the data were processed

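The deposited values are linear probe set signals in units of intensity, made by the authors with GCOS 1.4, per the submitters' processing notes. The design text states a scaling of each array to an average of 500, which the deposited signals do not show, so each array was rescaled to a 2% trimmed mean of 500 and all were quantile normalized. Control probe sets (64) were left out, 16 was added before log2, and probe sets reaching 100 on at least 3 arrays were kept (14510). A gene was its brightest kept probe set. The platform annotation named 1 gene for 20380 probe sets, several for 691 and none for 1555.

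Group means were fitted in limma 3.58.1 (R 4.3.3) with an intensity trend, 8 residual and 4.44 prior degrees of freedom. Tests were two-sided. The number of arrays limits the precision. The fit was tested on simulated data with independent normal noise on every array. No simulated array was degraded or dim, so that test does not bear on such arrays. Fold changes are on the log2(signal + 16) scale, which understates those of dim genes.

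The members and lists were chosen with earlier results of these data known. Named genes were all members, up to 3 called genes of each list (otherwise the 2 with the smallest p between genotypes in SpV lungs), and the 3 genes that correlated best with each member.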

Additional observations from a re-analysis of the deposited data

How the results depend on the processing

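Of the counts of called platelet genes, those for ventilation and the interaction were 0 in all fits. The count for genotype in SpV lungs was 0 without scaling and 0 to 1 when 1 array was left out. In HVT lungs it was 0 with equal medians (Ppbp 1.51, limma adjusted p = 0.0786), no scaling (0.74, 0.449), no filter (adjusted p = 0.0521) and no trend (0.0534), and 0 to 1 without an array. On average it was 0 without scaling and 1 in every fit without an array, where Ppbp was 1.62 to 1.93. The cause of these losses was not tested.

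With group means removed, arrays of the same replicate number in different groups had r of -0.172 to 0.395 over 18 pairs, 6 above 0.1. Differently numbered arrays were not compared, so whether the numbers pair the arrays is not settled. Fitting replicate number as a block changed the genotype calls over all genes. They went from 348 to 510 on average, from 31 to 36 in SpV and from 69 to 66 in HVT lungs. With the replicate block the count was 0 in HVT lungs (Ppbp 1.61, limma adjusted p = 0.0535), and the Ppbp average stayed called (adjusted p = 0.00335).

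Without scaling, the median of all genes shifted by -0.47 in SpV, -0.77 in HVT and -0.61 on average, and these signs turned: Pf4 -0.13 in SpV, -0.11 in HVT and -0.12 on average, Itga2b -0.53 in HVT and -0.21 on average, Gp9 -0.058, -0.60 and -0.33, Gp1bb -0.31 in HVT and -0.017 on average, and Ank1 -0.058 on average. With the actin ratio as covariate, Itga2b (-0.0076) and Gp9 (-0.27) turned in HVT. With ventilation in WT, Ppbp (-0.12), Pf4 (0.050) and Itga2b (0.0078) turned with that covariate, and Ppbp (-0.0028) with scaling alone.

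Leaving out an array also turned signs: Gp9 in HVT lay between -0.31 and 0.45, and its interaction between -0.76 and 0.033. With ventilation in WT, Ppbp lay between -0.12 and 0.27, Pf4 between -0.18 and 0.069, Itga2b between -0.24 and 0.0037 and Gp9 between -0.23 and 0.45, and in KO Ppbp between -0.58 and 0.017 and Gp9 between -0.69 and 0.069. Signals under 100, as of Itgb3, are too close to background to compare.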

Other observations

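Genes within 30 kb of the platelet genes were read from the RefSeq annotation. The chemokine gene Cxcl15, beside Ppbp and Pf4, had a KO minus WT average of 0.04 ± 0.15 (limma adjusted p = 0.917), while Cxcl5 and Cxcl3 in the same cluster were not tested. Beside Itgb3, Myl4, an atrial myosin light chain, was higher in KO lungs by 0.87 ± 0.18 (limma adjusted p = 0.0219). Beside Gp1bb, the transcription factor gene Tbx1 had 0.70 ± 0.19 (adjusted p = 0.0615). Beside Itga2b, Grn had -0.03 ± 0.10 (adjusted p = 0.888).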
